A study of Mus musculus with 8 samples.

Results

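Fatty acid oxidation, ketone body and peroxisome genes were followed in colonic organoids with and without an epithelial deletion of Reg3a. The set was a list of 39 gene symbols, and all 39 were found among the 45777 genes of the deposited table. It comprised 19 genes of mitochondrial fatty acid oxidation, 4 of peroxisomal oxidation, 3 ketone body enzymes, 12 peroxisome assembly factors and Abat. Abat encodes GABA transaminase, a mitochondrial enzyme that degrades the transmitter GABA and beta-alanine and is not itself an enzyme of fatty acid oxidation. All 39 passed the filter on low counts, and the lowest count of any member in any library was 199, for Pex10.

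Organoids are epithelial cultures grown in Matrigel from isolated crypts, here from the colon of male mice 9 weeks old, collected 3 days after passage with no added treatment. The 4 KO libraries (replicates 5 to 8) came from Reg3aΔIEC organoids, in which loxP sites around exons 2 to 4 of Reg3a were combined with Cre driven by the Villin promoter, active in intestinal epithelium. The 4 WT libraries (replicates 13 to 16) came from Reg3afl/fl organoids, which carry the same floxed gene without that Cre. The labels give 1 mouse per genotype in 4 wells in one sentence and 3 mice per genotype in another, so p-values reflect only how much these libraries vary, which may be technical, and genotype cannot be told apart from mouse or culture line.

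Long-chain fatty acids enter mitochondria through the carnitine shuttle and are then shortened in cycles of dehydrogenation, hydration, a second dehydrogenation and thiolysis. Electrons from the acyl-CoA dehydrogenases pass through the electron transfer flavoprotein to the respiratory chain. Peroxisomes carry out a parallel oxidation of very long, branched and dicarboxylic acids with their own enzymes, which are imported by the peroxin (Pex) proteins. In the colon, surface epithelial cells are known to burn butyrate made by bacteria, and their mitochondria can turn the acetyl-CoA into ketone bodies. Many genes of these pathways are known targets of the PPAR nuclear receptors.

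Libraries held between 37182098 and 49256171 counts. Reg3a itself had 0 counts in all 8 libraries, which allows at most 0.0609 to 0.0807 CPM (counts scaled by library size and TMM factors), so the targeted gene could not check the labels. Epithelial markers were abundant, at a summed 9968 to 10982 CPM over 7 genes, and 2 of them, Cdx2 and Vil1, were higher in KO by 0.33 and 0.25 on the log2 scale. Fibroblast markers summed to at most 1.07 CPM, with Col1a2, Dcn and Lum at 0 in every library, and Vim, the single gene of the list that could be tested, was not called by edgeR, DESeq2 or limma-voom or at an unadjusted p under 0.05. Of 6 leukocyte markers Cd3e was at 0 in every library. Cd68, lower in KO with means of 31.0 CPM against 38.4 CPM, made up most of their summed level of 28.8 to 44.3 CPM. Endothelial markers summed to between 2.96 and 5.51 CPM, most of it Vwf, and Pecam1, Cdh5 and Kdr were too low to test. KO replicate 6 stood apart in some of these genes: Lyz2, a lysozyme gene of myeloid cells, was at 9.90 CPM there and at 0 in the other 7 libraries. Cdh5 (0.619 CPM), Kdr (0.289 CPM) and Col3a1 (0.103 CPM) were likewise detected in that library alone, and Pecam1 was at 0.413 CPM in it and at most 0.0480 CPM elsewhere. Without KO replicate 6, 9 of the members were called higher in place of 12.

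Markers of epithelial cell types differed between the genotypes. Of 13 tested absorptive colonocyte markers 7 were higher in KO and 1 was lower, with Car1, Krt20, Cyp2c55, Lypd8, Muc3 and Slc26a3 higher by between 0.43 and 0.98 on the log2 scale. The lower one, Aqp8, ranged from 7.69 to 12.4 CPM in KO and from 6.59 to 37.2 CPM in WT, so that the groups overlapped. Its edgeR call held in 3 of the 8 analyses that left 1 library out and was made by neither DESeq2 nor limma-voom. The summed level of the colonocyte markers was 7364 to 7698 CPM in KO and 5062 to 5651 CPM in WT. Of 10 proliferation markers 9 were lower in KO, among them Aurkb, Bub1b, Mcm5, Mcm3, Top2a and Birc5, and the sum was 1085 to 1147 CPM against 1296 to 1488 CPM. Goblet markers (4 of 8 lower: Tff3, Agr2, Fcgbp, Spdef), enteroendocrine markers (3 of 6: Gcg, Pyy, Insm1), the tuft marker Avil and 4 of 7 tested stem cell markers (Lgr5, Smoc2, Cdca7, Ascl2) were also lower, while the stem cell marker Rnf43 was higher. The summed stem cell markers stood at 512 to 530.4 CPM in KO and 512 to 526 CPM in WT. Genes of the mitochondrial genome took 1.57% ± 0.159 of a KO library's counts and 1.14% ± 0.0991 of a WT library's (SD, n = 4). These shifts move with every result given here and their part in it was not tested. In such bulk samples, fewer cells of a type and less RNA per cell cannot be told apart.

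Called differences among the members were all toward higher levels in KO. Of 39 members 12 were higher and none was lower by edgeR at an adjusted p under 0.05, where 7.63% of all 14945 tested genes were called higher and 8.26% lower. Among tested genes with a mean of at least 5 CPM, a level every member reached, 8.70% were called higher and 10.4% lower. No member was lower at an unadjusted p under 0.05 either, and 15 were higher at that level. DESeq2 called 14 members higher and none lower, and limma-voom 12 and none. Over all 14945 tested genes DESeq2 called 1333 higher and 1372 lower, and limma-voom 1120 and 1169. The median log2 fold change was 0.077 over the 39 members, or 0.074 without Abat, and -0.0012 over all tested genes. In 13 members every KO library lay above every WT library, as it did in 9.91% of tested genes, and in none did every KO library lie below, where 10.3% of tested genes showed that. Together the members took 0.377% ± 0.00324 of all counts in KO and 0.358% ± 0.00491 in WT.

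Apart from Abat, which more than doubled, the differences were small. The 11 other called members rose by 7.89% (Hadh) to 28.7% (Ehhadh). The number of calls depended on the libraries kept: 12 members were higher with all 8, but 6 without KO replicate 5, 7 without KO replicate 7, 5 without KO replicate 8 and 5 without WT replicate 13. Calls over all tested genes fell in the same analyses, from 1140 higher to 757, 784, 696 and 763 in that order. Of the 12 members, 4 were called higher in all 15 alternative analyses, namely Abat, Ehhadh, Cpt2 and Decr1. By class, 7 of 19 mitochondrial oxidation genes, 3 of 4 peroxisomal oxidation genes, 0 of 3 ketone enzymes and 1 of 12 assembly factors were higher. Their median log2 fold changes were 0.071, 0.16, -0.00064 and 0.062 in that order, and the differences between classes were not tested.

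**Figure D1:**
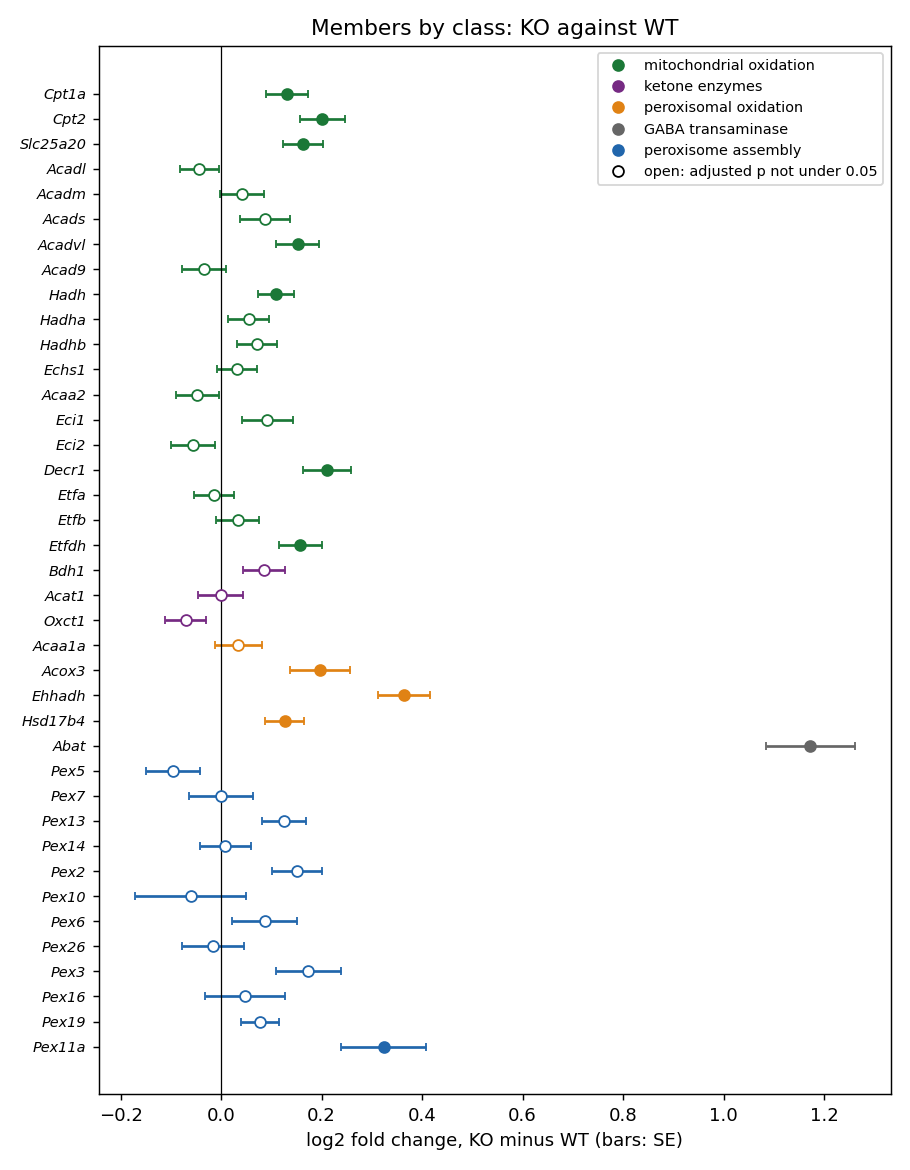
Log2 fold change of each member, KO minus WT, on the x axis, with bars of 1 SE from the edgeR fit over 4 KO and 4 WT libraries. Filled points had an adjusted p under 0.05, colours give the class, and all members except Abat (1.17) lie between -0.096 and 0.36.

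The members differed widely in level, which was compared per transcript length with the authors' TPM values (reads scaled for gene length and depth). Hadh stood highest at 331 ± 9.92 TPM in KO and 300 ± 5.85 TPM in WT (SD, n = 4), above Etfa at 267 ± 7.16 and 264 ± 11.2 TPM. The next levels, averaged over all 8 libraries, were Acadl (214 TPM), Etfb (198 TPM), Echs1 (183 TPM) and Slc25a20 (177 TPM), all mitochondrial. For neighbours in the full order, the upper gene's mean minus SD was set against the lower gene's mean plus SD. In 27 of the 38 pairs the upper gene did not clear the lower in at least 1 genotype. Hadh and Etfa, Etfa and Acadl, and Etfb and Echs1 were among the 11 pairs that stood apart in both. The ketone enzymes Oxct1 and Bdh1 stood at 140 and 122 TPM, ranks 8 and 12 of 39. Peroxisomal members lay lower, from Hsd17b4 at 81.5 TPM and Acaa1a at 69.1 TPM down to Ehhadh at 15.6 TPM. Among assembly factors Pex19 (69.0 TPM) and Pex14 (43.7 TPM) led. Averaged over all 8 libraries, Pex10 was the least abundant member at 6.96 TPM, next to Abat at 7.03 TPM. Their order differed between the genotypes. Abat stood at 9.80 ± 1.10 TPM in KO and 4.25 ± 0.446 TPM in WT, Pex10 at 6.88 ± 0.898 and 7.05 ± 0.635 TPM. The members that rose most in proportion, Abat, Ehhadh and Pex11a (12.1 TPM), stood at ranks 38, 35 and 36 of 39 by the mean over all libraries.

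**Figure D2:**
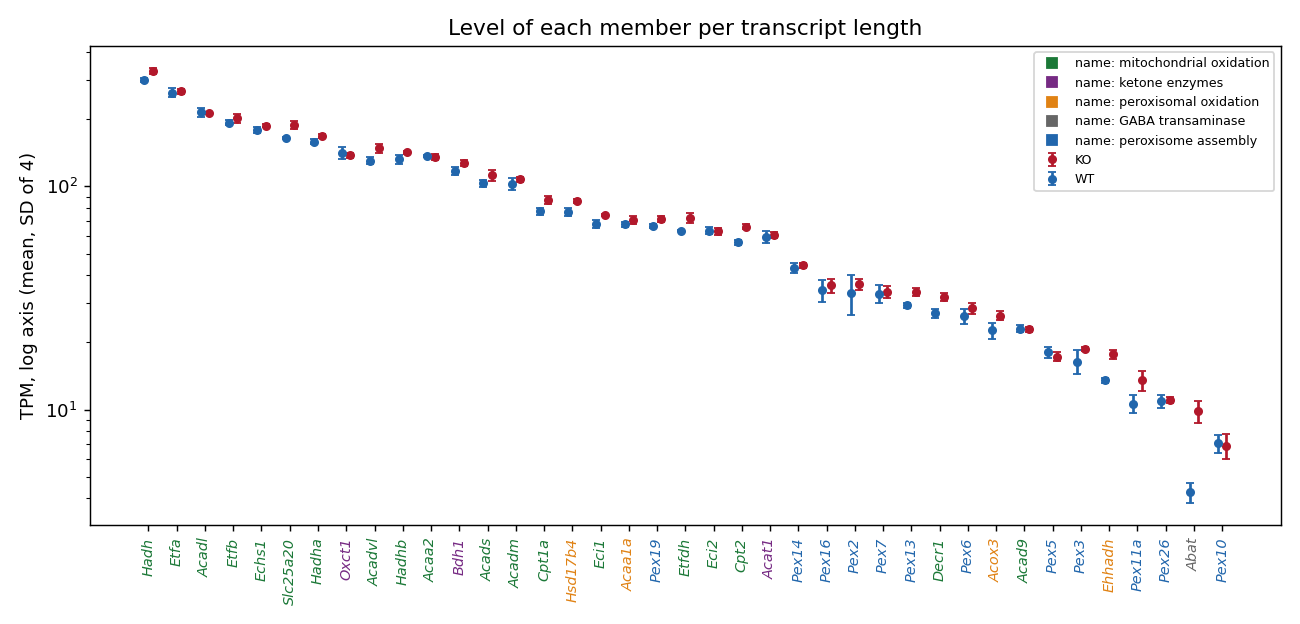
TPM of each member on a log axis, ordered by the mean of all libraries, with points for the mean and bars for the SD of 4 KO and 4 WT libraries. Mitochondrial oxidation genes hold the first 7 places, from Hadh at 315 TPM, and Abat is the gene whose KO and WT points stand farthest apart.

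Promoter sequence was available for 31 of the 39 members in RefSeq windows of GRCm38.p6, from 250 bases before to 50 after the gene start. None of the 31 held, on either strand, the consensus PPAR response element, a direct repeat of the nuclear receptor core motif with a single base between the copies. Of tested genes with a window 0.0632% held it, so that its absence from 31 genes was likely beforehand and nothing is read from it. Among the called members Abat, Decr1 and Hsd17b4 had no window. The estrogen-related receptor element TCAAGGTCA (0.316% of tested genes) was also in none. A GC box, GGGCGG on either strand, was in 25 of the 31 (80.6%) and in 65.9% of tested genes, and a CCAAT box in 11 of the 31 (35.5%) and in 42.9%. Such matches are a description of these windows only. The 250 bases upstream of 4 genes are shown 5′ to 3′ on the gene's strand, with GC and CCAAT boxes of either strand in capitals: Ehhadh and Cpt2, which were called in every alternative, Pex11a, the called assembly factor, and Hadhb, whose start lies head to head with that of Hadha across 272 bases.
Ehhadh, chr16:21787835-21788084, minus strand: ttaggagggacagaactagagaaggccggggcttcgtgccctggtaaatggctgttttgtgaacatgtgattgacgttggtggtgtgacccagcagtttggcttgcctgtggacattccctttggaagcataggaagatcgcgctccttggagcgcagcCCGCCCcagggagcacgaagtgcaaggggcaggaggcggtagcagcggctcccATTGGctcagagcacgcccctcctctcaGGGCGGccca
Cpt2, chr4:107923590-107923839, minus strand: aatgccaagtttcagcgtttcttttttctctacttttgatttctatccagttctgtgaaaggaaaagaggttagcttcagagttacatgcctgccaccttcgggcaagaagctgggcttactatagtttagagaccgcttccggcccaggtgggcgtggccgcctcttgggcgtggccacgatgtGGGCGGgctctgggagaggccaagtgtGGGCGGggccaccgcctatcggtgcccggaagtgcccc
Pex11a, chr7:79743132-79743381, minus strand: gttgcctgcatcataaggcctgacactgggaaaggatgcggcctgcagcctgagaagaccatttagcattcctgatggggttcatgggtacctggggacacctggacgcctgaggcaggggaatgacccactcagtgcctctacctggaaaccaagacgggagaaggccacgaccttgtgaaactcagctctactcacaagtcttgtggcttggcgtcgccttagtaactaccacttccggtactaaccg
Hadhb, chr5:30155003-30155252, plus strand: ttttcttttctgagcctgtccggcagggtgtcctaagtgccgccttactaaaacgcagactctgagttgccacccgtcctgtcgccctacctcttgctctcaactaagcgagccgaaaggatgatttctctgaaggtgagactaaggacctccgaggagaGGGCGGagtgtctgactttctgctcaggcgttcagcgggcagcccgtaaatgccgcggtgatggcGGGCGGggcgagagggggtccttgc
Ehhadh, Cpt2 and Hadhb each held 2 GC boxes here and Ehhadh also a CCAAT box, while the Pex11a stretch held neither.

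The carnitine shuttle was the step at which every member rose. Cpt1a, on chromosome 19 (3322326 to 3385735), encodes the outer-membrane carnitine palmitoyltransferase that controls entry of long-chain fatty acids. It was measured at 187, 178, 189 and 191 CPM in KO replicates 5 to 8 and at 167, 166, 167 and 181 CPM in WT replicates 13 to 16. WT replicate 16 thus lay above KO replicate 6, and the groups overlapped. On the log2 scale it rose by 0.13 ± 0.042 (SE of the edgeR fit, adjusted p = 0.0494), close to the threshold. Slc25a20 (chromosome 9, 108662136 to 108684642), the carrier that brings acylcarnitines through the inner membrane, stood at 164, 160, 163 and 172 CPM in KO and 144, 151, 145 and 149 CPM in WT. Its groups did not overlap, and it rose by 0.16 ± 0.039 on the log2 scale (edgeR adjusted p = 0.0129). Cpt2 (chromosome 4, 107903982 to 107923589) restores the acyl-CoA inside the mitochondrion. Its libraries read 79.6, 76.0, 76.6 and 78.1 CPM in KO and 67.7, 69.6, 63.2 and 69.3 CPM in WT, with every KO library above every WT library. That difference was 0.20 ± 0.045 on the log2 scale (edgeR adjusted p = 0.00779). Cpt1a missed the threshold in 6 of the 8 analyses that left 1 library out, namely KO replicates 5, 7 and 8 and WT replicates 13, 14 and 15 (edgeR adjusted p = 0.0630 to 0.149). Slc25a20 missed it once KO replicate 8 was dropped (0.0616).

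Of the 5 acyl-CoA dehydrogenases, which open each cycle for chains of a given length, 1 rose, the very long chain enzyme gene Acadvl. Acadvl (chromosome 11, 70010183 to 70015428) was at 165, 157, 157 and 170 CPM in KO and 139, 148, 147 and 149 CPM in WT, so that the groups did not overlap. Its log2 fold change was 0.15 ± 0.043 (edgeR adjusted p = 0.0285), which missed the threshold once KO replicate 5 or 8, or WT replicate 13, was dropped (0.0886 to 0.110). Acadl, the long chain enzyme and the most abundant of them, was at 208 ± 3.90 (KO) and 214 ± 7.58 CPM (WT) (edgeR adjusted p = 0.520). The medium chain enzyme gene Acadm (log2 fold change 0.042), the short chain Acads (0.087) and Acad9 (-0.034), whose product also helps assemble respiratory complex I, did not pass the edgeR test (adjusted p = 0.592, 0.271 and 0.676). Whether Acadvl differed from the other 4 was not tested.

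The hydration, second dehydrogenation and thiolysis steps showed 1 call among 5 genes. Hadh (chromosome 3, 131233419 to 131272101), the 3-hydroxyacyl-CoA dehydrogenase of shorter chains, read 303, 288, 297 and 295 CPM in KO and 273, 271, 274 and 277 CPM in WT. The groups did not overlap, yet the change of 0.11 ± 0.035 on the log2 scale was the smallest of the 12 calls (edgeR adjusted p = 0.0495). Dropping any KO library, WT replicate 13 or WT replicate 14 made it miss the threshold (0.0564 to 0.149). Hadha and Hadhb, the subunits of the mitochondrial trifunctional protein, stood at 229 ± 5.81 and 145 ± 2.48 CPM in KO and 221 ± 8.16 and 138 ± 4.92 CPM in WT. Neither passed (log2 fold change 0.055 and 0.071, edgeR adjusted p = 0.416 and 0.267). Nor did Echs1, the short chain enoyl-CoA hydratase gene (0.032, adjusted p = 0.672), or the thiolase gene Acaa2 (-0.048, adjusted p = 0.524).

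Of the 3 auxiliary enzymes that handle double bonds, 1 rose. Decr1 (chromosome 4, 15917240 to 15945377), the dienoyl-CoA reductase needed for polyunsaturated chains, stood at 44.2, 45.4, 47.3 and 43.6 CPM in KO and 40.4, 39.1, 39.3 and 37.1 CPM in WT. Every KO library exceeded every WT library, and its rise of 0.21 ± 0.048 on the log2 scale (edgeR adjusted p = 0.00843) was the largest among the mitochondrial members. The enoyl-CoA isomerase genes Eci1 (0.092, edgeR adjusted p = 0.263) and Eci2 (-0.056, adjusted p = 0.456) did not pass. Reads of Eci2 may be shared with its close copy Eci3. Among the 3 electron carrier genes 1 rose. Etfa and Etfb, the flavoprotein subunits, were at 195 ± 3.87 and 91.5 ± 3.25 CPM in KO and 197 ± 7.70 and 89.4 ± 2.65 CPM in WT (edgeR adjusted p = 0.867 and 0.683). Etfdh (chromosome 3, 79603788 to 79628767), the dehydrogenase that hands their electrons to ubiquinone, rose. Its levels were 85.1, 78.7, 85.5 and 80.2 CPM in KO and 73.7, 74.4, 72.9 and 74.4 CPM in WT, without overlap. The log2 fold change was 0.16 ± 0.043 (edgeR adjusted p = 0.0245), which missed the threshold once KO replicate 5 or 7, or WT replicate 13, was dropped (0.0615 to 0.0893). Over all 19 mitochondrial members, the 7 calls became 3 without KO replicate 5 or 8 or WT replicate 13, and 4 without KO replicate 7.

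Of the 4 peroxisomal oxidation genes 3 rose. Ehhadh (chromosome 16, 21761285 to 21787834) encodes the L-bifunctional enzyme, a classical PPAR-alpha target. It read 27.3, 26.4, 25.0 and 27.3 CPM in KO and 20.9, 21.1, 20.4 and 19.9 CPM in WT. The lowest KO library stood well above the highest WT library, and the change was 0.36 ± 0.052 on the log2 scale, or 28.7% (edgeR adjusted p = 0.000403). Acox3 (chromosome 5, 35582981 to 35614208), an acyl-CoA oxidase for branched chains, was at 53.9, 51.6, 53.1 and 55.0 CPM in KO and 44.4, 46.4, 43.0 and 52.8 CPM in WT. WT replicate 16 overlapped the KO libraries, and the log2 fold change was 0.20 ± 0.060 (edgeR adjusted p = 0.0412). Hsd17b4 (chromosome 18, 50128201 to 50196270), the D-bifunctional enzyme, was at 115, 114, 116 and 116 CPM in KO and 108, 102, 108 and 104 CPM in WT. These groups did not overlap (0.13 ± 0.039, edgeR adjusted p = 0.0411). Acaa1a, a peroxisomal thiolase gene, was at 62.4 ± 2.19 (KO) and 60.9 ± 2.43 CPM (WT) (0.034, edgeR adjusted p = 0.694), and its reads are uncertain because a close copy, Acaa1b, exists.

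The peroxisomal calls other than Ehhadh lay near the threshold and were lost in most analyses with 1 library left out. Acox3 was lost in 7 of the 8 analyses that left 1 library out, all but that without WT replicate 16 (edgeR adjusted p = 0.0546 to 0.121), and Hsd17b4 in all but that without WT replicate 15 (0.0632 to 0.113). With no low-count filter they stood at edgeR adjusted p = 0.0562 and 0.0524. Calls in the class thus fell from 3 to 1 without any 1 KO library, WT replicate 13 or WT replicate 14, and to 1 with no low-count filter.

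Other genes of peroxisomal oxidation and the peroxisomal matrix were taken from a list of 27 that does not include the members. Of 26 tested, 11 were higher, none lower and 15 not called by edgeR, beside 7.63% of all tested genes higher, and the median log2 fold change was 0.10. None was lower at an unadjusted p under 0.05, or by DESeq2 (11 higher) or limma-voom (10 higher). Cat, the peroxide-degrading catalase gene, rose from 124 ± 3.81 to 144 ± 2.59 CPM (0.21), and Abcd3, a transporter of acyl-CoA into peroxisomes, from 250 ± 16.8 to 287 ± 8.64 CPM (0.20). Nudt19 (0.32) and Nudt7 (0.23), CoA diphosphatase genes, and Decr2 (0.17), the peroxisomal dienoyl-CoA reductase gene, were also higher. The other 6 called genes had log2 fold changes between 0.14 and 0.25. The count of 11 fell to 6 without KO replicate 5 or 6 or WT replicate 16, to 5 without KO replicate 7 or 8, and to 4 without WT replicate 13.

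Of the peroxisome assembly genes few passed the test. Pex11a (chromosome 7, 79735957 to 79743131), which drives elongation and division of peroxisomes and is a known PPAR-alpha target, was the 1 of 12 that rose. That share, 8.33%, is near the 7.63% of all tested genes called higher. It read 14.2, 14.2, 15.2 and 17.4 CPM in KO and 10.8, 12.1, 12.5 and 13.4 CPM in WT. KO replicate 8 was the highest and WT replicate 13 the lowest, and the groups did not overlap. Its log2 fold change of 0.32 ± 0.084 (edgeR adjusted p = 0.0191) lost its call without either of these, KO replicate 8 (0.0716) or WT replicate 13 (0.0649). The count for the class was then 0, and it was 2 without WT replicate 14 and 3 without WT replicate 15.

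None of the 4 genes of cargo reception and docking was called by edgeR. Pex5 and Pex7, the receptors for the C-terminal and N-terminal import signals, were at 27.0 ± 1.33 and 31.8 ± 1.87 CPM in KO and 28.9 ± 1.28 and 31.9 ± 2.46 CPM in WT (edgeR adjusted p = 0.273 and 1.00). Of the docking factors, Pex14 was at 43.8 ± 1.28 and 43.5 ± 2.51 CPM (adjusted p = 0.942). Pex13 stood at 60.8, 58.6, 57.4 and 59.7 CPM in KO and 55.5, 55.7, 53.3 and 52.2 CPM in WT. Its groups did not overlap, but it missed the threshold (0.13 ± 0.044, edgeR adjusted p = 0.0698). It was the 1 docking gene with an unadjusted p under 0.05, was called by DESeq2 (adjusted p = 0.0374) and was not called by limma-voom.

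None of the 4 receptor recycling genes was called by edgeR. Pex2, a ubiquitin ligase subunit, stood just outside the threshold at 55.6 ± 1.51 (KO) and 50.1 ± 2.75 CPM (WT), without overlap (0.15 ± 0.049, edgeR adjusted p = 0.0536). It was the only 1 of the 4 with an unadjusted p under 0.05, and DESeq2 called it (adjusted p = 0.0268) while limma-voom did not. It was also called without WT replicate 14 (edgeR adjusted p = 0.0473) or WT replicate 15 (0.0227). Its partner Pex10 was at 5.68 ± 0.729 and 5.94 ± 0.556 CPM (adjusted p = 0.777). Pex6, an ATPase that extracts the receptor, and Pex26, its membrane anchor, had log2 fold changes of 0.087 and -0.017 (adjusted p = 0.422 and 0.901).

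Of the membrane protein insertion factors, Pex19 was measured at 112 ± 2.24 (KO) and 106 ± 0.717 CPM (WT). Its groups did not overlap, although the edgeR test was not passed (0.077 ± 0.038, adjusted p = 0.199). Pex3, the docking site of Pex19, had a log2 fold change of 0.17 ± 0.064 (edgeR adjusted p = 0.0862), called without WT replicate 15 (0.0148), and Pex16 one of 0.047 (0.759). A further list of 8 assembly and division genes had 7 tested and no call by edgeR, DESeq2 or limma-voom, with 1 gene lower at an unadjusted p under 0.05. The genes with the highest mean CPM in it, not scaled for length, were the fission genes Dnm1l and Fis1. They had log2 fold changes of -0.049 and -0.095 (edgeR adjusted p = 0.653 and 0.146).

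**Figure D3:**
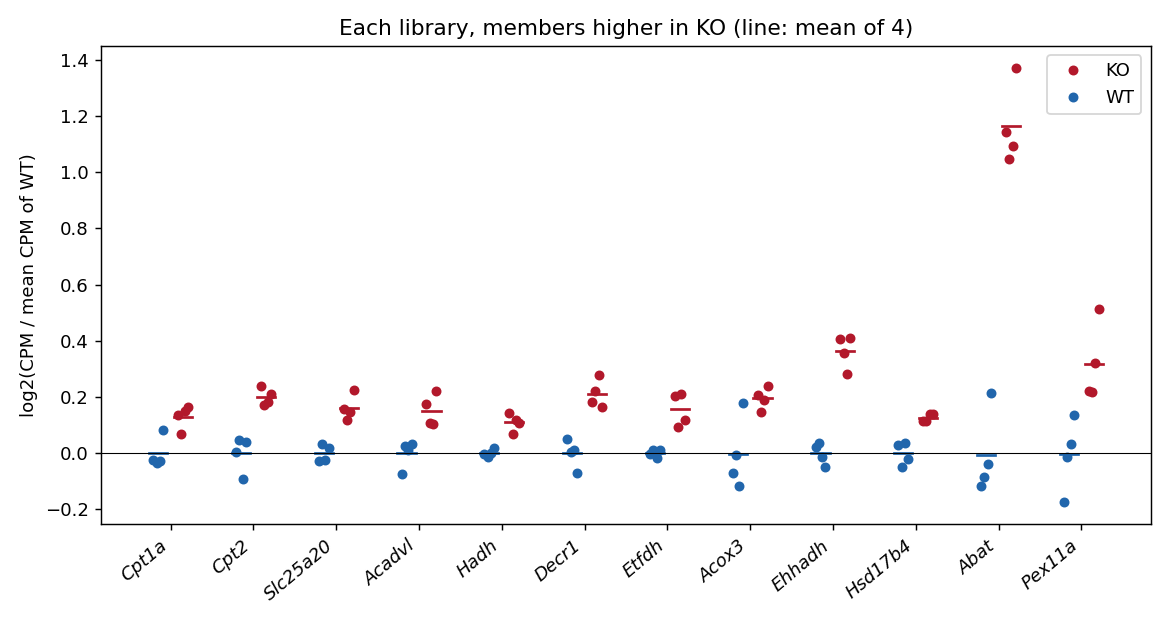
Log2 of each library's CPM relative to the mean CPM of WT for the 12 members called higher, with KO in red, WT in blue and lines for the mean of 4. Abat stands apart at about 1 or more in every KO library, and single WT libraries reach the KO points for Cpt1a and Acox3.

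The 3 ketone body enzymes did not pass the test. Oxct1, the transferase with which tissues burn ketone bodies, was at 240 ± 6.02 (KO) and 252 ± 11.1 CPM (WT) (log2 fold change -0.071 ± 0.042, edgeR adjusted p = 0.291). Bdh1, which interconverts acetoacetate and beta-hydroxybutyrate, was at 198 ± 4.60 and 187 ± 8.57 CPM (0.085 ± 0.042, edgeR adjusted p = 0.203). Acat1, the mitochondrial acetoacetyl-CoA thiolase gene, was at 102 ± 3.32 and 102 ± 4.53 CPM (adjusted p = 0.996). None had an unadjusted p under 0.05, and neither DESeq2 nor limma-voom called any. Outside these 3 genes, 5 other ketone genes were tested, and 2 were higher and none lower by edgeR, DESeq2 and limma-voom. That share, 40%, stands beside 7.63% of all tested genes called higher by edgeR. Among them Slc16a1, which encodes a monocarboxylate transporter for butyrate, lactate and ketone bodies, was higher in KO (0.13, edgeR adjusted p = 0.0401). The other called gene is not reported here. The Slc16a1 call held in 1 of the 8 analyses that left 1 library out.

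Abat (chromosome 16, 8513429 to 8621568) differed most of all members. It stood at 22.3, 20.8, 21.5 and 26.1 CPM in KO replicates 5 to 8 and at 9.30, 9.51, 9.81 and 11.7 CPM in WT replicates 13 to 16. The lowest KO library was above every WT library, and KO replicate 8 and WT replicate 16 were the highest of their groups. The change was 2.25-fold, or 1.17 ± 0.089 on the log2 scale (edgeR adjusted p = 2.99e-06), and at least 1.10 when any 1 library was left out. Of 8 tested genes in a list of GABA and beta-alanine neighbours, Gabarap among them, 2 were higher and none lower by edgeR, DESeq2 and limma-voom. At an unadjusted p under 0.05, 3 were higher and none lower. The edgeR share, 25%, stands beside 7.63% of all tested genes called higher. The 2 called were Slc6a6, the taurine and beta-alanine transporter gene (0.24, edgeR adjusted p = 0.00293), and Hibadh, of valine degradation (0.14, adjusted p = 0.0172). The GABA-synthesizing genes Gad1 and Gad2 were too low to test.

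Of 13 tested uptake and activation genes 1 was higher (7.69%, near the 7.63% of all tested genes), Acsf2, a mitochondrial acyl-CoA synthetase gene (0.23, edgeR adjusted p = 0.00265). The acetyl-CoA synthetase genes Acss2 (-0.17) and Acss1 (-0.19) were lower (adjusted p = 0.00972 and 0.0107). Of 16 tested further mitochondrial genes 3 were higher and none lower by edgeR, DESeq2 or limma-voom, while 1 was lower at an unadjusted p under 0.05. Acad10, an acyl-CoA dehydrogenase family gene, rose from 11.3 ± 0.696 to 16.0 ± 0.637 CPM (0.50 ± 0.066, edgeR adjusted p = 0.000214). Mmut, the methylmalonyl-CoA mutase gene, rose from 55.8 ± 5.34 to 74.2 ± 2.55 CPM (0.41 ± 0.062). Acacb, whose product makes the malonyl-CoA that restrains the carnitine shuttle, was low and also higher in KO (0.40 ± 0.11, adjusted p = 0.0254). The Acacb call held in 4 of the 8 analyses that left 1 library out.

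The PPAR receptor genes did not pass the test. Pparg was at 185 ± 4.73 (KO) and 187 ± 5.18 CPM (WT), Ppard at 164 ± 3.90 and 164 ± 8.95 CPM, and Ppara, low at 1.65 ± 0.225 and 1.14 ± 0.236 CPM, had a log2 fold change of 0.55 ± 0.19 (edgeR adjusted p = 0.845, 0.991 and 0.0728). These 3 were chosen after their values were seen. Of the 13 receptors and co-regulators tested, 3 were higher: Rxra, the partner of all PPARs (0.28, edgeR adjusted p = 0.00292), the bile acid receptor gene Nr1h4 (0.28, 0.00567) and the co-activator gene Ppargc1b (0.21, 0.0349). Rxrb was lower (-0.16, 0.0408). Of all tested genes 7.63% were higher and 8.26% lower. The calls of Rxrb and Ppargc1b each held in 2 of the 8 analyses that left 1 library out, those of Rxra and Nr1h4 in all 8. Of 8 tested PPAR targets outside the members, 1 was higher and 1 lower by edgeR. The lower was Plin2, a lipid droplet coat gene, from 118 ± 6.34 to 103 ± 2.40 CPM (-0.20, edgeR adjusted p = 0.0107). The higher gene is not reported here. Over all 8 lists of other pathway genes, 22 of 94 tested genes were higher (23.4%) and 4 lower, beside 7.63% and 8.26% of all tested genes. The 22 became 14 without KO replicate 5, 13 without KO replicate 7, and 12 without KO replicate 8 or WT replicate 13, and the 4 became 2 without KO replicate 8.

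**Figure D4:**
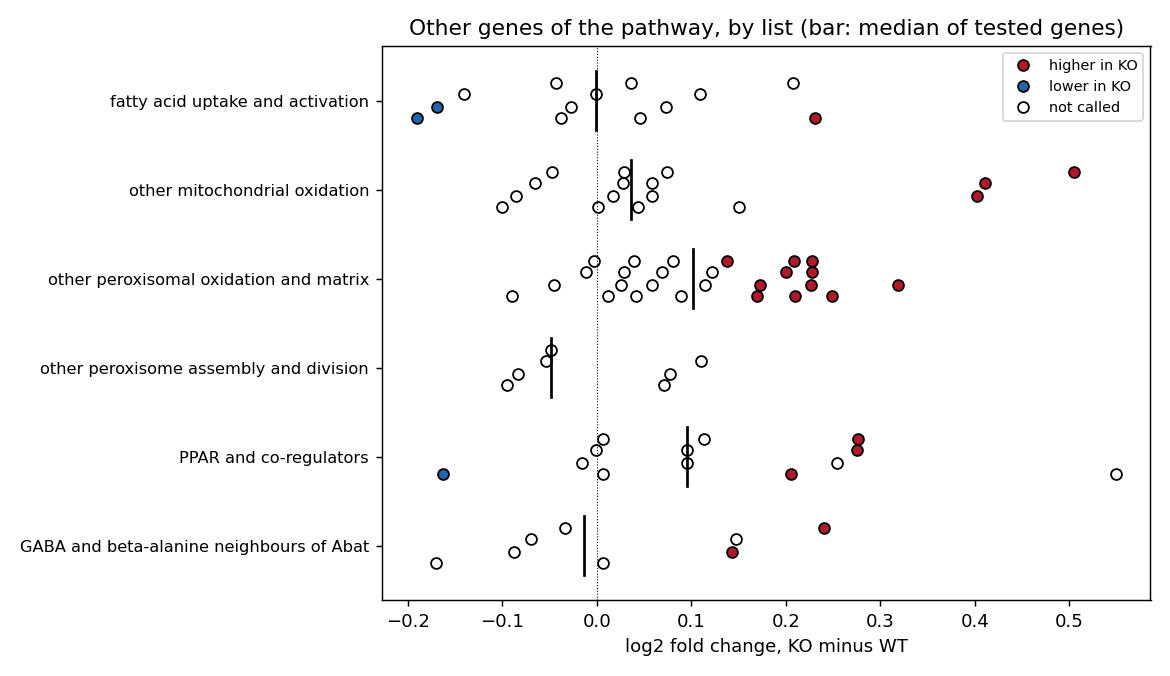
Log2 fold change, KO minus WT, of each tested gene in 6 lists of related genes that exclude the members, with red for genes called higher, blue for lower, open for not called and a bar for the list's median. The peroxisomal oxidation and matrix list holds 11 red points of 26, and the assembly and division list none of 7.

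Some member reads may not be unique to the gene. Of the 39 members 19 overlap another RefSeq gene on GRCm38, including 8 of the 12 called, such as Etfdh with Ppid and Pex11a with Wdr93. The sources used here do not give whether strand entered the counting, so the split of reads at these overlaps is uncertain.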

How the data were processed

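RNA from 8 colonic organoid libraries (4 KO, 4 WT) was sequenced by the authors from stranded mRNA libraries, made from 1 µg of RNA with an integrity number above 7.0 per the labels' protocols. The deposited counts are unnormalized integers for each gene. The tools named are HTSeq, Bowtie2, TopHat and TopHat2 with build GRCm38, per the submitters' processing notes, without version or role. The deposited TPM values, scaled for length and depth by the authors and summing to 999972 to 999989 per library, were used only for levels. The deposited FPKM values were not used. More genes held a count of 2 (673 to 772) than of 1 (548 to 622) in each library, so both mates of a pair may have been counted.

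Genotypes were compared under R 4.3.3 by edgeR 4.0.16 (quasi-likelihood), after filterByExpr and TMM scaling, with Benjamini-Hochberg adjustment over 14945 genes. The SE is the log2 fold change divided by the square root of F. CPM is TMM-scaled. Intervals for a count of 0 allow 3 counts, are scaled by library totals alone and cover counting error only. Groups came from the genotype labels, and library pairs of 1 genotype differed beyond counting noise (chi-square at least 4.96 times its degrees of freedom). The edgeR step was tested on simulated counts. Alternatives were 3 other scalings, DESeq2 1.42.0, limma-voom (limma 3.58.1), 2 other filters and leaving out each library. Python 3.11.15, pandas 2.3.3 and matplotlib 3.10.9 handled tables and plots.

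The members and lists (189 entries, all matched by symbol) were chosen with earlier results of these data known. Named are all members, up to 6 called genes of each other list by adjusted p, or the 2 with the highest mean CPM where none was called. Some called genes of these lists are not reported here. Lists were described by counts and medians, without set tests. Promoter motifs other than the PPAR element were chosen after seeing the data.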

Additional observations from a re-analysis of the deposited data

Results flagged for a closer look

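Among 78 checks, of 39 members in each genotype, 2 found 1 library far from the other 3 of its group. Chance flags about 1 in 20 such groups. Cpt1a stood at 180.5 CPM in WT replicate 16 and between 166.3 and 167.4 CPM in the other WT libraries. Pex26 stood at 21.1 CPM in KO replicate 8 and between 22.7 and 22.9 CPM in the other KO libraries.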

How the results depend on the processing

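Of 15 alternative analyses, the 7 that kept all libraries left 8 to 14 members higher and none lower. Leaving out 1 library gave 5 to 12 members higher and none lower, with 3 to 7 mitochondrial, 1 to 2 peroxisomal oxidation, 0 to 3 assembly and 0 ketone genes higher. Other pathway lists then had 12 to 21 genes higher and 2 to 5 lower, and the peroxisomal matrix list 4 to 11 higher. Peroxisomal oxidation calls fell to 1 with no low-count filter. Assembly calls rose to 3 with DESeq2 and 2 with at least 1 CPM in 4 libraries.

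Directions turned only for members that were not called, with log2 fold changes between -0.061 (Pex10) and 0.047 (Pex16) in the reported fit. Acat1, at -0.00064 in the reported fit, was 0.0021 with DESeq2 size factors, 0.0032 with library totals, 0.0016 with upper quartile scaling, 0.0020 with the DESeq2 test, 0.0029 with no low-count filter and 0.0010 with at least 1 CPM in 4 libraries. Pex7 was 0.0028, 0.0041, 0.0027, 0.0027, 0.0037 and 0.0019 in that order and 0.0031 with limma-voom. Leaving out 1 library, log2 fold changes ran from -0.024 to 0.027 for Acat1, -0.042 to 0.050 for Pex7, -0.037 to 0.0094 for Etfa, -0.014 to 0.048 for Pex14, -0.12 to 0.018 for Pex10, -0.048 to 0.037 for Pex26 and -0.029 to 0.098 for Pex16. The cause was not tested. No paired analysis was possible because the genotypes share no library numbers. Every member had at least 199 counts in each library.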
